A study of Mus musculus with 27 samples.

Results

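The comparison described here is that of the jejunum, which lies between duodenum and ileum in the small intestine, between C57BL/6 mice given ethanol and C57BL/6 mice given water. It rests on 7 of the 27 libraries of the series, chosen by their tissue and treatment labels: 3 control and 4 ethanol libraries of whole jejunum tissue, numbered by the donor numbers of the labels. C57BL/6 is an inbred laboratory strain. The ethanol group received 15% EtOH and the control group water, both for 8 weeks, and the design text of the series names the permeability of the intestine as the subject. The labels used here state neither the age nor the sex of the mice, and they do not say whether a library is 1 mouse or a pool. The other libraries are colon tissue and organoids (cultures of the epithelium alone), and they enter only where stated.

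The jejunal wall holds an epithelium of absorptive, mucus-making, hormone-making and antimicrobial cells, lymphocytes that sit between the epithelial cells or in the tissue under them, and muscle. Paneth cells at the base of the crypts secrete alpha-defensins and lysozyme, plasma cells under the epithelium release immunoglobulin A that is carried into the lumen, and intraepithelial T cells patrol the barrier. Ethanol taken by mouth is absorbed mainly in this upper part of the gut, where alcohol and aldehyde dehydrogenases can oxidize it.

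In the ethanol libraries several genes of plasma cells, intraepithelial T cells and MHC class II presentation had higher mean levels than in the control libraries, and alpha-defensins of Paneth cells and the beta-carotene cleaving enzyme Bcmo1 had lower ones. The plasma cell gene Igj averaged 386 ± 142 CPM (counts per 1000000 counts outside Rn45s; SD, n = 4) with ethanol against 81.3 ± 21.1 (n = 3) in controls. Bcmo1 averaged 9.98 ± 3.40 CPM (n = 4) against 49.8 ± 15.0 (n = 3). No gene passed the threshold of the test (adjusted p under 0.05) across all genes. The values that follow are therefore given as levels and differences with their errors, and "higher" or "lower" refers to group means or ranges.

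The depth of the libraries differed with the treatment. Rn45s, the 45S pre-ribosomal RNA, took 76.3% to 84.3% of the counts in the controls, and 80.8%, 56.4%, 63.8% and 53.4% in the ethanol libraries. The counts outside Rn45s were 1377843, 684906 and 1510057 in the controls and 2099739, 3765108, 4630264 and 7606668 in the ethanol libraries. Each ethanol library was thus deeper than each control, a difference of 1.86 in mean log2 counts (two-sided exact permutation test, p = 0.0571, the smallest that 3 against 4 libraries allow). The mean share of Rn45s was 16.8 percentage points lower with ethanol, with overlapping ranges (two-sided exact permutation test, p = 0.114). CPM are scaled by TMM factors, so that 1 read was worth 0.848 to 1.55 CPM in a control and 0.167 to 0.571 CPM in an ethanol library. A gene of low level could therefore be seen more easily with ethanol than without it.

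**Figure D1:**
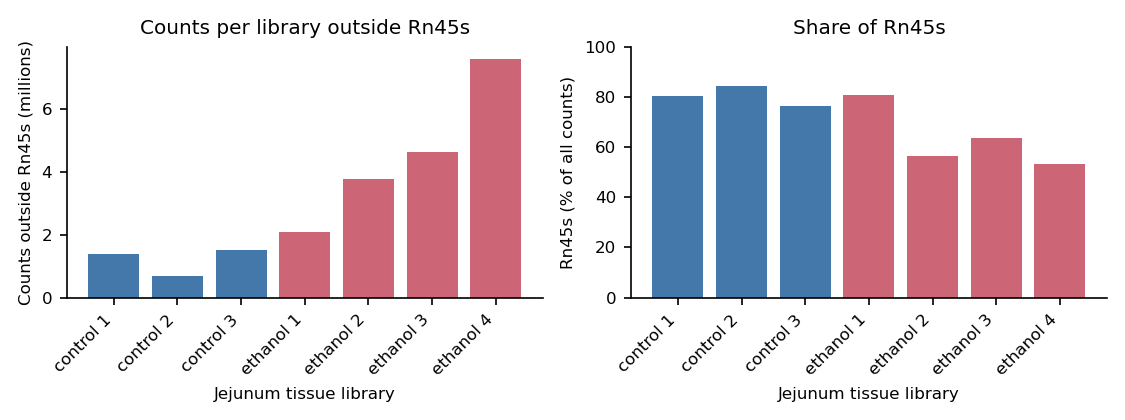
Counts outside Rn45s (left) and the share of Rn45s in percent of all counts (right), 1 bar for each jejunum tissue library. All 4 ethanol libraries are deeper than the 3 controls, and ethanol 1 has a share of Rn45s within the range of the controls.

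The libraries carried the markers of small intestine. Sis, the sucrase of the brush border, ranged from 322 to 784 CPM over the 7 libraries, and Zg16, a goblet cell product, from 5826 to 11511 CPM. Gata4, a transcription factor of the upper small intestine, ranged from 130 to 211 CPM. The 6 pancreas markers were at 0 in all 7 libraries. Fabp6, a bile acid binding protein of the ileum, was at 511, 1.55 and 2722 CPM in the controls and at 4.0, 0.994, 1326 and 1905 CPM in the ethanol libraries. Both groups thus held libraries with almost none and libraries with much of it. Car1, a carbonic anhydrase that is a colon marker, was at 551 CPM in control 2 and 140 CPM in ethanol 1, against 1.0 to 44.1 CPM elsewhere. Where along the gut the pieces were cut is not stated in the labels, and its part in the results was not tested.

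Over all genes the comparison gave many small p-values on the side of ethanol and no call. The test was edgeR's quasi-likelihood test on 13405 genes, and 0 genes (0%) passed in either direction, with a smallest adjusted p of 0.0745. Without adjustment, 1146 genes (8.55%) had a p under 0.05 on the higher side and 316 (2.36%) on the lower. The control and ethanol ranges did not overlap for 863 genes (6.44%) that were higher and 204 (1.52%) that were lower. This tilt towards ethanol depends on the scaling: the median log2 fold change of all genes was 0.14 with TMM and 0.02 with median-ratio size factors, which gave 825 (6.15%) and 522 (3.89%) genes. When every jejunum library was thinned to 684906 counts, the number in the shallowest library, 755 (5.70%) and 425 (3.21%) genes had an unadjusted p under 0.05, and the ranges did not overlap for 494 (3.73%) and 329 (2.48%). DESeq2 called 31 genes, 14 higher (0.104%) and 17 lower (0.127%), and a fit of the 7 libraries alone called 1 of 9996, Igj (0.01%). The fit of the 7 libraries with the donor number as a block called 10 genes, 5 (0.05%) in each direction. Number 4 occurs only in ethanol 4, so the differences of this fit come from controls 1 to 3 and ethanol 1 to 3. The deepest ethanol library thus has no part in them, and few residual degrees of freedom remain. Those on the lower side included the skeletal muscle actin Acta1 (-2.48 ± 0.43, edgeR adjusted p = 0.00327) and the serine protease Prss23 (-1.24 ± 0.26, adjusted p = 0.0378), and the other 8 are described with their groups. The same block gave 0 calls when all 15 tissue libraries were fitted with it.

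**Figure D2:**
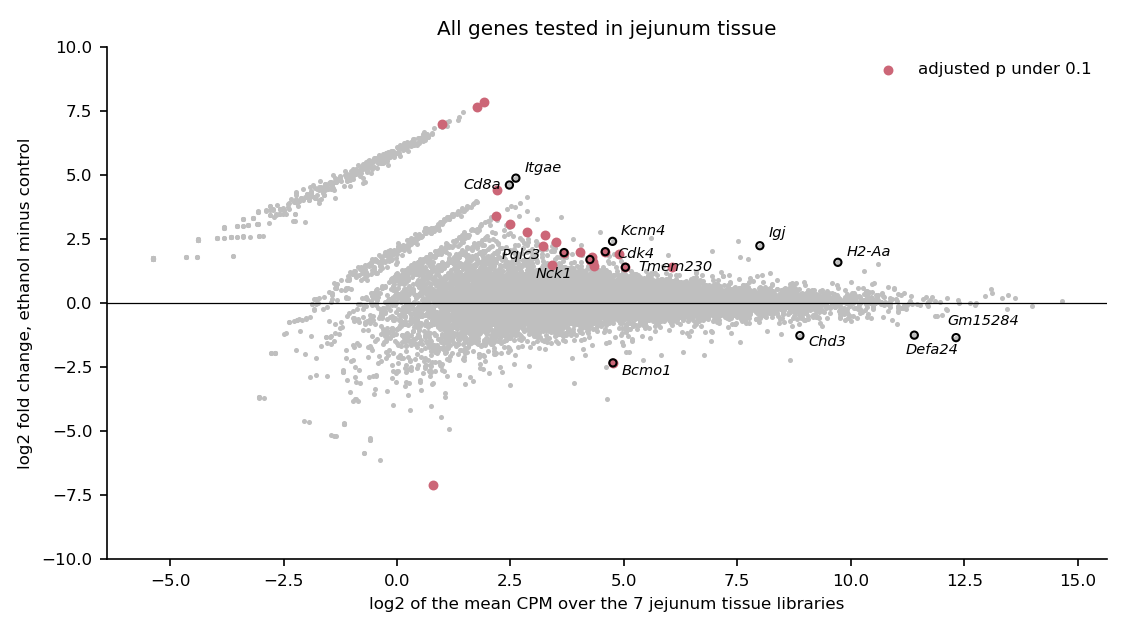
Each of the 13405 genes by its mean level over the 7 jejunum tissue libraries (log2 CPM, horizontal) and its log2 fold change, ethanol minus control (vertical). Red points are the 23 genes with an adjusted p under 0.1, of which 21 are higher with ethanol. The straight bands of points at the upper left are genes with 0 or very few counts in the controls.

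The 10 genes with the smallest p-values on the higher side, among those with a mean of at least 5 CPM, belong to several processes. Pqlc3 (chr12:16988648-17000408; all coordinates are of GRCm38), a membrane protein with PQ-loop repeats, had 4.59, 4.66 and 5.09 CPM in the controls and 17.7, 20.5, 16.1 and 21.1 CPM with ethanol. Every ethanol library was above the controls, a difference of 1.97 ± 0.33 on the log2 scale (SE, edgeR adjusted p = 0.0745). The control values rested on 5, 3 and 6 counts, so their closeness to each other cannot be read as a low spread. Nck1 (chr9:100492293-100546134), an adaptor that couples receptor kinases to the actin skeleton, had 10.1, 9.32 and 5.94 CPM in the controls and 23.4, 22.9, 30.8 and 30.9 CPM with ethanol. Its groups were also apart, by 1.70 ± 0.31 on the log2 scale. Cdk4 (chr10:127063534-127067920), the kinase that D-type cyclins activate to start the cell cycle, had 12.8, 10.9 and 3.39 CPM against 40.5, 29.2, 24.7 and 46.9 CPM. The lowest ethanol library was above the highest control, and the difference was 2.01 ± 0.39.

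The other members of this set were of low level as well. The mitochondrial protease Htra2 had 3 control counts (1 in each library) and 141 with ethanol, a ratio of pooled rates of 9.53 (exact 95% interval 3.20 to 46.8, counting error only). Tmem107, a protein of the ciliary gate, had a log2 fold change of 2.79 ± 0.53. Pts, an enzyme of tetrahydrobiopterin synthesis, had 1.98 ± 0.39, and the LIM-domain protein Wtip had 1.80 ± 0.33. The remaining 3 genes were 2610001J05Rik (1.59 ± 0.29), the short-chain dehydrogenase relative Sdr39u1 (1.43 ± 0.29) and the vesicle membrane protein Tmem230 (1.40 ± 0.27). All 10 kept their groups apart after thinning to equal depth, which is a description, since they were chosen by p-value. DESeq2 called 8 of them, and the fit of all 27 libraries called 6.

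On the lower side Bcmo1 (chr8:117095854-117133720; now named Bco1) led. Its enzyme splits beta-carotene into retinal in the enterocyte and is the entry point of plant vitamin A. Bcmo1 had 38.5, 66.8 and 44.1 CPM in the controls and 14.8, 8.61, 9.43 and 7.02 CPM with ethanol. The highest ethanol library was below the lowest control, and the log2 fold change was -2.34 ± 0.46 (edgeR adjusted p = 0.0784). DESeq2 called Bcmo1 lower (-2.46, adjusted p = 0.000935), as did the fit of the 7 libraries with the donor block (-2.26, edgeR adjusted p = 0.0382). Of 21 retinoid genes for uptake, storage and response, 1 (Rdh10) was higher and 1 (Bcmo1) lower at an unadjusted p under 0.05, with a median log2 fold change of 0.33. That median was 0 after thinning, 0.14 when genes at 0 in a group were set to their floor-based limit and -0.05 in the fit of the 7 libraries alone, so it gave no direction. Rdh10, which oxidizes retinol, had 0.75 ± 0.30, and Bco2, which splits carotenoids at another bond, had 0.35 ± 0.27.

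The remaining 9 genes on the lower side were mostly of modest size. Chd3, a remodelling subunit of the NuRD complex, had 479, 1108 and 536 CPM in the controls and 300, 347, 367 and 158 CPM with ethanol, a log2 fold change of -1.27 ± 0.33. The collagen Col7a1, which forms anchoring fibrils under epithelia, had -2.47 ± 0.61, and the microtubule-bound ubiquitin ligase Mid1 had -2.38 ± 0.61. Cab39l, a scaffold of the LKB1 kinase complex, had -1.08 ± 0.26 and the endosomal deubiquitinase Usp8 had -1.01 ± 0.26. The Arf regulator Git2 (-0.87 ± 0.24), Fam193a (-0.83 ± 0.23) and the methionine aminopeptidase Metap2 (-0.82 ± 0.21) had the smallest differences. The last of the 9 was the alpha-defensin Defa24, described with the Paneth cells. DESeq2 called 8 of the 10 genes on this side, all except Chd3 and Fam193a.

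Several genes of plasma cells were higher with ethanol. Igj (chr5:88519809-88527891; now named Jchain) codes for the chain that joins immunoglobulin A into dimers. It had 101, 59.0 and 84.0 CPM in the controls and 286, 430, 261 and 567 CPM with ethanol. Every ethanol library was above every control. The log2 fold change was 2.24 ± 0.70 (edgeR adjusted p = 0.256). The fit of the 7 libraries alone called it (2.14 ± 0.32, edgeR adjusted p = 0.0376), and so did the same fit with the donor block (1.89 ± 0.29, adjusted p = 0.000613). Mzb1, a chaperone of immunoglobulin folding, had 36.7, 12.4 and 33.9 CPM against 95.9, 60.6, 44.4 and 56.5 CPM, again without overlap. Of 22 B and plasma cell genes in the table, 12 passed the filter on low counts. Some of these, such as Fcrla with 0 counts in all controls, passed through the deeper ethanol libraries, so that the counts and the median over the 12 are descriptions that the filter partly fixes. An unadjusted p under 0.05 was found for 3 (Igj, Cd79b and Fcrla) on the higher side, where 8.55% of all genes were, and the median log2 fold change of 1.39 was 0.62 in the fit of the 7 libraries alone. Summed over all 22 genes, without a filter, the level was 157 to 261 CPM in the controls and 473 to 822 CPM with ethanol, with Igj the major part of the difference. The groups did not overlap for 5 of 12, all higher (6.44% of all genes were): Igj, Mzb1, the surface proteoglycan Sdc1, the plasma cell regulator Prdm1 and the B cell receptor gene Cd79b. Sdc1 came close to overlap, with at most 89.0 CPM in the controls and at least 90.2 CPM with ethanol. Neither Sdc1 nor Prdm1 was confined to plasma cells. Organoids, cultures of the epithelium alone, had 90.8 to 171 CPM of Sdc1 and 0.822 to 3.47 CPM of Prdm1. After thinning to equal depth Igj and Mzb1 were apart (3.73% of all genes were, on the higher side). The B cell genes Cd79a and Ms4a1 were at or near 0, with at most 0.167 and 1.34 CPM in any library. In whole tissue, more cells of a type and more RNA per cell cannot be told apart.

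Some genes of intraepithelial T cells, such as Itgae and Cd8a, were near 0 in the controls. Itgae (chr11:73090583-73147446) codes for the integrin that holds T cells in the epithelium by binding E-cadherin. It had 0, 0 and 0.849 CPM in the controls (1 count in all) and 5.71, 6.29, 9.43 and 20.7 CPM with ethanol. The ethanol libraries were all above the controls (edgeR adjusted p = 0.132), and the ratio of pooled rates was 37.9 (exact 95% interval 6.72 to 1506). Cd8a (chr6:71373427-71379173), the co-receptor of cytotoxic T cells, had 0, 1.55 and 0 CPM against 11.4, 5.96, 9.15 and 10.9 CPM. Again all ethanol libraries were higher, with the control group resting on 1 count (ratio 27.6, exact 95% interval 4.87 to 1097). Gzma, a protease of cytotoxic granules, was better covered, with 0.917, 15.5 and 22.9 CPM against 30.8, 79.8, 77.6 and 114 CPM. Its groups did not overlap, and the fit of the 7 libraries with the donor block called it (2.40 ± 0.44, edgeR adjusted p = 0.00951). Other T cell markers overlapped. Cd3e had 0, 0 and 9.33 CPM in the controls and 10.3, 11.6, 5.27 and 21.2 CPM with ethanol. Cd4 had 3.39 to 5.50 CPM in the controls and 1.99 to 14.8 CPM with ethanol.

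Of 29 butyrophilin-like and intraepithelial lymphocyte genes in the table, 20 passed the filter. Members with almost no control counts, such as Itgae, Cd8a, Il2rb and Lat, could pass only through other, deeper libraries, so the counts that follow describe the 20 and not the list. On the higher side 7 had an unadjusted p under 0.05 (8.55% of all genes did) and on the lower side 0, and the median log2 fold change was 1.35 (2.23 without control 2). Summed over all 29 genes the level overlapped, at 458 to 643 CPM in the controls and 411 to 893 CPM with ethanol. The groups were apart for 7 of 20, all higher (6.44% of all genes were). Besides Itgae, Cd8a and Gzma these were the interleukin receptor chain Il2rb, the T cell receptor chain Cd3g, the signalling adaptor Lat and the granule protease Gzmb. After thinning to equal depth the groups were apart for 7, all higher (3.73% of all genes were), with Ccl5 in place of Gzmb, and the median was 1.25. At full depth the chemokine Ccl5 had 3 control counts and overlapping groups (ratio 13.2, exact 95% interval 4.44 to 64.5). Btnl1, an epithelial butyrophilin-like gene, had 364 to 447 CPM in the controls and 232 to 624 CPM with ethanol (0.09 ± 0.61). With the share of Rn45s as a covariate the median of the list was 0.49. Of 20 helper T cell genes 8 passed the filter, and none of these had its groups apart (median 0.92, and 0.54 with the 7 libraries alone).

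**Figure D3:**
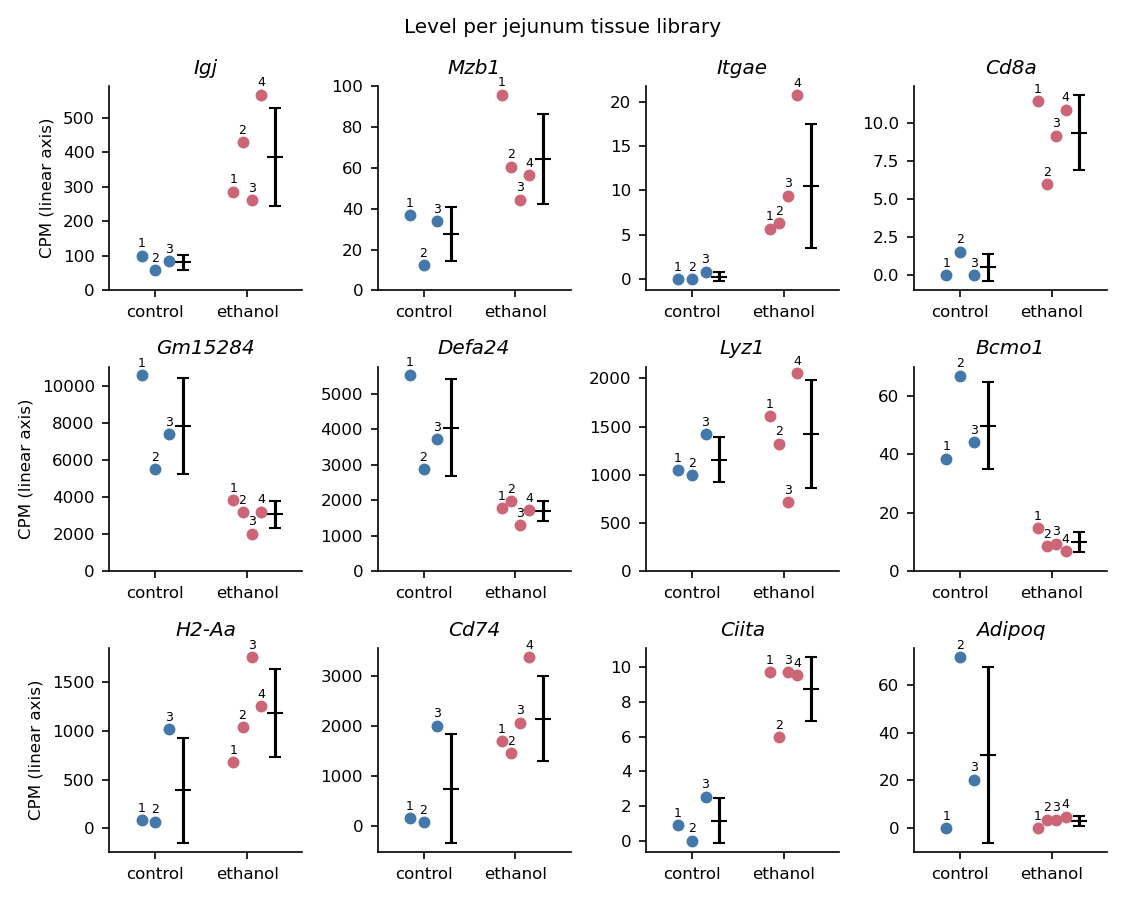
Level of 12 genes in CPM (vertical, linear axis) in each jejunum tissue library, numbered by donor, with the mean and SD of each group beside the points. Igj, Mzb1, Itgae, Cd8a and Ciita lie higher and Gm15284, Defa24 and Bcmo1 lower with ethanol without overlap; Lyz1 overlaps; H2-Aa and Cd74 have control 3 among the ethanol libraries; Adipoq is high in controls 2 and 3.

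MHC class II genes, which present antigen to helper T cells, split the controls. H2-Aa (chr17:34282744-34287823), the alpha chain of the class II molecule, had 86.2, 68.4 and 1014 CPM in the controls and 675, 1039, 1753 and 1249 CPM with ethanol. Controls 1 and 2 were far below all ethanol libraries, while control 3 lay among them. Cd74, the chain that escorts class II molecules, had 154, 82.3 and 2001 CPM against 1689, 1456, 2064 and 3369 CPM. Ubd, a ubiquitin-like protein induced by interferon, had 5.50, 1.55 and 143 CPM against 265, 138, 354 and 364 CPM. Of 10 class II genes tested, 9 had a positive log2 fold change (61.7% of all genes did), with a median of 1.56. An unadjusted p under 0.05 was found for 3 of 10 (H2-Eb1, H2-DMa and Ciita), all higher (8.55% of all genes were). Ciita, with at most 2.55 CPM in the controls and 0.833 CPM in colon tissue, passed the filter on low counts through the ethanol libraries. The counts and the median over the 10 are therefore descriptions that the filter partly fixes. With the share of Rn45s as a covariate the median was 0.52. Without control 3 the median was 3.72, and edgeR called 5 genes higher and 1 lower (0.0362% and 0.00725% of 13795). These were Cd74 (4.18 ± 0.51, adjusted p = 0.00367), H2-Aa (3.93), H2-Ab1 (3.72), Ubd (6.15), Tmem107 and, on the lower side, Zbtb3. Control 3 is the control that lay among the ethanol libraries, so its removal widens these differences. Without control 1 instead, edgeR called 0 genes and the differences were smaller. They were 1.12 ± 0.81 for H2-Aa, 0.74 ± 0.79 for H2-Ab1, 1.04 ± 0.80 for Cd74 and 1.89 ± 1.01 for Ubd. H2-Eb1, a beta chain, was called by the fit of the 7 libraries with the donor block (2.26 ± 0.33, edgeR adjusted p = 0.000283), in which control 3 is set against ethanol 3.

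Ciita (chr16:10480059-10528418), the transactivator that switches on the class II genes, was the member of this list with groups apart. It had 0.917, 0 and 2.55 CPM in the controls and 9.71, 5.96, 9.71 and 9.52 CPM with ethanol, from 4 control counts in all. As Ciita passed the filter through the ethanol libraries, this separation is a description. Its log2 fold change was 2.69 ± 0.75 (edgeR adjusted p = 0.227). The promoters of 3 class II genes are shown because these genes are known targets of Ciita and were each highest in an ethanol library. The 200 bases before the RefSeq start site (GRCm38.p6, printed 5′ to 3′ on the gene's strand) were searched on both strands for TGATTGG, the core of the Y box that NF-Y binds, which is set in capitals.
H2-Aa, minus strand, chr17:34287824-34288023: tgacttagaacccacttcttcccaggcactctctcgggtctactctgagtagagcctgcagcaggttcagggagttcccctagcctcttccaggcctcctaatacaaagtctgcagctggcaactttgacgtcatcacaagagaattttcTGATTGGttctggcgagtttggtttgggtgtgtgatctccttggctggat
H2-Eb1, plus strand, chr17:34305667-34305866: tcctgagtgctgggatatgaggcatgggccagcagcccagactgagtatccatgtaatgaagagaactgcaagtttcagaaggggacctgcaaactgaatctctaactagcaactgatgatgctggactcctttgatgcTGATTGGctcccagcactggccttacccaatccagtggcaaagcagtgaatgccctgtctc
H2-DMb1, plus strand, chr17:34152991-34153190: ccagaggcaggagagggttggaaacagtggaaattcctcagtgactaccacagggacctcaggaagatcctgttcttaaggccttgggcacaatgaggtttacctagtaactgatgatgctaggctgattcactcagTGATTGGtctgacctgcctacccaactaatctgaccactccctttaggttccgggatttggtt
The motif began 50, 61 and 63 bases before the start of H2-Aa, H2-Eb1 and H2-DMb1. Of 32851 promoters of that length, 2158 (6.57%) held it. A match describes the letters of the window and is not evidence of a bound site in these libraries. The log2 fold changes of H2-Eb1 and H2-DMb1 were 2.02 ± 0.87 and 1.81 ± 0.84.

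Other genes of immune signalling were partly higher. Of 51 interferon-stimulated genes tested, 5 had an unadjusted p under 0.05, all higher (among them Dhx58, Igtp, Psmb9 and Cxcl10), a share near the 8.55% of all genes, and the median was 0.20. Psmb9, a subunit of the immunoproteasome, had 49.5, 37.3 and 48.4 CPM against 76.5, 66.3, 127 and 117 CPM, without overlap at full depth and with overlap after thinning. Dhx58, a sensor of viral RNA, had 2.64 ± 0.67 and was also apart. Of 23 chemokine and NF-kB feedback genes, 7 had an unadjusted p under 0.05, all higher (8.55% of all genes were), with a median of 0.76 that was 0.28 after thinning and 0.15 with the share of Rn45s as a covariate. Ccl28, an epithelial chemokine that draws plasma cells, had 0.917, 6.21 and 3.39 CPM against 18.8, 19.2, 8.04 and 19.5 CPM. Its ethanol libraries were all above the controls (2.35 ± 0.59). Kcnn4 (chr7:24370263-24386690), a calcium-gated potassium channel of crypt and immune cells, had 14.7, 3.11 and 4.24 CPM against 67.9, 37.1, 20.8 and 40.4 CPM. DESeq2 called Kcnn4 (2.33, adjusted p = 0.0232), as did the fit of the 7 libraries with the donor block (2.46 ± 0.51, edgeR adjusted p = 0.0330). That fit also called Igtp, an interferon-induced GTPase (2.13 ± 0.38, adjusted p = 0.00605), whose groups overlapped. Macrophage markers gave no single direction: C1qa had 41.9 to 134 CPM in the controls and 85.5 to 157 CPM with ethanol, and Cd68 was at 0 in all 7 libraries.

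Paneth cell genes divided into defensins that were lower with ethanol and products that were not. Gm15284 (chr8:21134642-21135598; now named Defa30) is an abundant alpha-defensin, with 10602, 5506 and 7397 CPM in the controls and 3831, 3199, 2029 and 3231 CPM with ethanol. No ethanol library reached the lowest control, and the log2 fold change was -1.35 ± 0.39 (edgeR adjusted p = 0.227). Defa24 (chr8:21734494-21735471) had 5539, 2874 and 3719 CPM against 1775, 1980, 1296 and 1731 CPM. Its groups were also apart (-1.25 ± 0.34), and DESeq2 called it (-1.37, adjusted p = 0.0171). Defa3 had 821, 901 and 824 CPM against 631, 600, 270 and 454 CPM, apart by -0.80 ± 0.26. The fit of the 7 libraries with the donor block called Defa5 (-1.57 ± 0.29, edgeR adjusted p = 0.00630) and Gm21002 (-2.46 ± 0.34, adjusted p = 0.000231), a further defensin gene now named Defa33.

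Of 24 Paneth cell genes tested, 9 had an unadjusted p under 0.05, all lower (2.36% of all genes were lower at that p), and the median log2 fold change was -0.76 where that of all genes was 0.14. The groups were apart for 5 of 24, all lower (1.52% of all genes were): Gm15284, Defa24, Defa3, Defa20 and Clps, a colipase. Defa20 rested on 8, 6 and 4 counts in the controls and 3, 6, 2 and 3 with ethanol, and it was not tested after thinning. Gm21002, which is outside this list, was apart too, with 95.4, 104 and 212 CPM against 9.71, 20.9, 62.7 and 49.1 CPM. The median ran from -0.89 to -0.49 when each library was left out in turn and was -0.77 after thinning. Other defensins were close to level, with log2 fold changes of -0.25 ± 0.36 for AY761184 and -0.21 ± 0.36 for Gm14851. Lyz1, the lysozyme of the same granules, had 1048, 994 and 1423 CPM against 1607, 1325, 715 and 2052 CPM. Its groups overlapped (0.30 ± 0.41), as did those of the lectin Itln1 (0.07 ± 0.32). Ang4, a microbicidal ribonuclease, had -1.29 ± 0.76 and Mptx2, a pentraxin, -1.64 ± 0.46.

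The alpha-defensins are near copies of each other, which limits how far their counts can be assigned. All 13 alpha-defensin genes examined (Gm21002 and those of the list with an annotated transcript) shared at least 1 word of 50 bases within the last 300 bases of their transcripts with another of 27 annotated members, so that reads may have been split among them. The promoters of a pair of them are shown as examples from genes that were both lower. They are again the 200 bases before the RefSeq start, searched on both strands for TATAAA, set in capitals.
Defa30 (Gm15284), plus strand, chr8:21134450-21134649: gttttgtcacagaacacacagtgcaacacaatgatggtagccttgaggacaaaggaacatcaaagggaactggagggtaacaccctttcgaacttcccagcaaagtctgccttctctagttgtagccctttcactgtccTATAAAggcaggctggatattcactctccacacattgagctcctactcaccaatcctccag
Defa21, plus strand, chr8:21025345-21025544: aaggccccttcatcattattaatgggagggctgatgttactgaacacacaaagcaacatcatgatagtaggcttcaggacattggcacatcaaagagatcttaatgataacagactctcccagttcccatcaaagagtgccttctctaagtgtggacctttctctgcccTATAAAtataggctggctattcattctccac
The motif began 61 bases before the start of Defa30 and 31 bases before that of Defa21, and 3272 of the 32851 promoters (9.96%) held it. Windows were compared position by position from the annotated start, without alignment. Those of Defa21 and Defa22 were identical at 200 of 200 positions, Defa20 matched Defa21 at 195, and Defa30 matched Defa21 at 52. Because the motif of Defa30 lay at another distance from the start, the 52 does not measure how alike these promoters are. The log2 fold changes of Defa20, Defa22 and Defa21 were -2.55 ± 0.82, -1.51 ± 0.57 and -0.84 ± 0.33.

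Genes of dividing crypt cells leaned higher. Of 38 cell cycle and DNA replication genes tested, 35 had a positive log2 fold change (61.7% of all genes did), 8 had an unadjusted p under 0.05 (all higher, as 8.55% of all genes were), and the median was 0.51. That median was 0.29 without control 3 and 0.88 with the share of Rn45s as a covariate. Mcm4 (chr16:15623897-15637400), a subunit of the replicative helicase, had 4.59, 7.77 and 5.09 CPM against 19.4, 14.6, 16.1 and 34.6 CPM. Its ethanol libraries were all above the controls (1.93 ± 0.48). Ccnd1, the D-type cyclin that activates Cdk4, had 143, 154 and 174 CPM against 295, 211, 328 and 315 CPM, also apart (0.87 ± 0.24). Rrm2, a subunit of ribonucleotide reductase, had 22.9, 4.66 and 3.39 CPM against 68.5, 27.8, 23 and 42.4 CPM, again apart. The mitotic checkpoint kinase Bub1 had 3 control counts and a ratio of 8.25 (exact 95% interval 2.76 to 40.5). Kif20a, a kinesin of cell division, was at 0 in all 3 controls and at 1.66 to 4.64 CPM with ethanol, at least 2.47-fold higher against a floor of 3 counts over the control group. Mki67, the common marker of cycling cells, overlapped with 21.7 to 53.2 CPM in the controls and 30.2 to 77.1 CPM with ethanol (0.64 ± 0.42). The groups were apart for 7 of 38 genes (6.44% of all genes were, on the higher side), and for 4 of 38 after thinning (3.73% of all), when those of Mcm4 and Rrm2 overlapped.

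Of 22 crypt stem cell genes tested 18 had a positive log2 fold change (61.7% of all genes), with a median of 0.60, and 5 had an unadjusted p under 0.05 on the higher side (8.55% of all genes): Ephb3, Bmi1, Hopx, Prom1 and Clca4. Hopx, a marker of slowly dividing crypt cells, had 70.6, 35.7 and 66.2 CPM against 163, 107, 73.5 and 110 CPM. Its groups did not overlap, nor did those of the polycomb gene Bmi1 (1.25 ± 0.40), the surface protein Prom1 (1.18 ± 0.46) or the ephrin receptor Ephb3 (1.73 ± 0.70). Ephb3 had only 1, 0 and 3 counts in the controls. After thinning its groups overlapped, while those of Hopx, Bmi1 and Prom1 stayed apart. Lgr5, the marker of fast-cycling stem cells, had 21.1, 1.55 and 9.33 CPM against 14.3, 13.9, 17.5 and 31.7 CPM, with overlap (0.79 ± 0.55). Olfm4 had 0.17 ± 0.80 and overlapped too.

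Several hormone genes of the upper gut were higher at full depth, while general endocrine markers differed among themselves. Cck (chr9:121489824-121495694), the hormone that empties the gall bladder, had 28.4, 7.77 and 5.94 CPM against 50.8, 37.1, 31.3 and 35.9 CPM. All ethanol libraries exceeded the controls (1.42 ± 0.55). Gip, which augments insulin release, had 46.8, 54.4 and 29.7 CPM against 75.4, 103, 58.5 and 59.5 CPM, apart by 0.78 ± 0.35. Gcg, the precursor of the glucagon-like peptides, had 1.25 ± 0.58, and the prohormone convertase Pcsk1, with 3 control counts, had a ratio of 5.14 (exact 95% interval 1.69 to 25.5), both with groups apart. Of 25 endocrine genes tested, 5 were higher (Cck, Gip, Gcg, Pcsk1 and Tac1) and 1 lower (Pcsk1n) at an unadjusted p under 0.05, with a median of 0.17. Of all genes, 8.55% were higher and 2.36% lower at that p. The groups were apart for 5 of 25 as deposited, all higher (6.44% of all genes were). After thinning they were apart for 1 of 25, near the share of all genes (3.73%), and those of Cck, Gip, Gcg and Pcsk1 overlapped. Chga, the granule protein common to endocrine cells, had 109, 43.5 and 99.3 CPM against 56.5, 52.7, 104 and 72.8 CPM (-0.24 ± 0.79). Chgb, a related granule protein, had 11, 20.2 and 14.4 CPM against 22.8, 35.1, 23.8 and 28.2 CPM. Its groups were apart at full depth and after thinning, with a log2 fold change of 0.90 ± 0.69 that was -0.16 with the share of Rn45s as a covariate.

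Absorptive and ethanol-handling genes stayed near the median of all genes. Of 24 alcohol and aldehyde genes tested, 1 had an unadjusted p under 0.05, Aldh7a1 with at most 3.11 CPM in any library, and the median was 0.07. Adh1, which oxidizes ethanol, had 86.2, 188 and 103 CPM against 118, 285, 134 and 77.7 CPM (0.30 ± 0.80). The aldehyde dehydrogenases Aldh1a1 (0.24 ± 0.69) and Aldh2 (0.17 ± 0.41) and the peroxisomal catalase Cat (-0.01 ± 0.35) overlapped as well. Cyp2e1, the ethanol-oxidizing cytochrome of liver, was of low level, with 0 to 17.0 CPM in the controls and 0.501 to 4.97 CPM with ethanol. The 95% interval of the log2 fold change for Aldh2 ran from -0.69 to 1.03, so that changes within that interval were not detectable with these libraries.

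Genes of digestion and the barrier were similar in this respect. The disaccharidases Sis (0.35 ± 0.77) and Lct (-0.52 ± 0.58), the apolipoprotein Apoa4 (0.41 ± 0.76) and the cytochrome Cyp3a11 (0.78 ± 0.46) all overlapped between groups. Of 33 tight junction genes tested, 1 was higher (Cldn12, 0.82 ± 0.24) and 1 lower (Inadl, a scaffold, -0.62 ± 0.21) at an unadjusted p under 0.05. Tjp1, the zonula occludens scaffold, had 115, 96.3 and 93.3 CPM against 83.9, 96.7, 93.7 and 133 CPM (0.01 ± 0.23). The sealing and pore proteins Ocln (0.25 ± 0.37), Cldn3 (0.55 ± 0.44) and Cldn15 (0.05 ± 0.29) and the adhesion protein Cdh1 (0.03 ± 0.27) overlapped. The mucin Muc2 (0.57 ± 0.71), the tuft cell kinase Dclk1 (0.76 ± 0.46) and the antimicrobial lectins Reg3g (0.59 ± 1.84) and Reg3b (0.33 ± 2.09) had wide errors. Reg3b ran from 3553 to 14961 CPM within the controls alone.

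Fat and muscle genes varied among the controls more than between groups. Adipoq, a hormone of fat cells, had 0, 71.5 and 20.4 CPM in the controls and 0, 3.64, 3.60 and 4.85 CPM with ethanol, and Cfd had 0, 118 and 39.0 CPM against 7.42, 0.994, 4.71 and 2.84 CPM. Control 1 was at 0 for both genes and controls 2 and 3 were high, so that the groups overlapped. Of 15 adipocyte genes tested, 14 had a negative log2 fold change and 1 (Cfd) an unadjusted p under 0.05, with a median of -1.15. Scd1, which desaturates fatty acids, had 6.42, 1089 and 1118 CPM against 272, 39.1, 229 and 85.4 CPM. Of 30 smooth muscle genes tested, 6 had a positive log2 fold change and 0 an unadjusted p under 0.05, with a median of -0.48 that turned to 0.03 without control 2 and to 0.53 with the share of Rn45s as a covariate. How much fat and muscle came with each piece was not tested. Lars2, a mitochondrial leucyl-tRNA synthetase, had 517, 589 and 453 CPM against 425, 197, 177 and 106 CPM, and its lower values stood in the 3 libraries with a lower share of Rn45s.

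**Figure D4:**
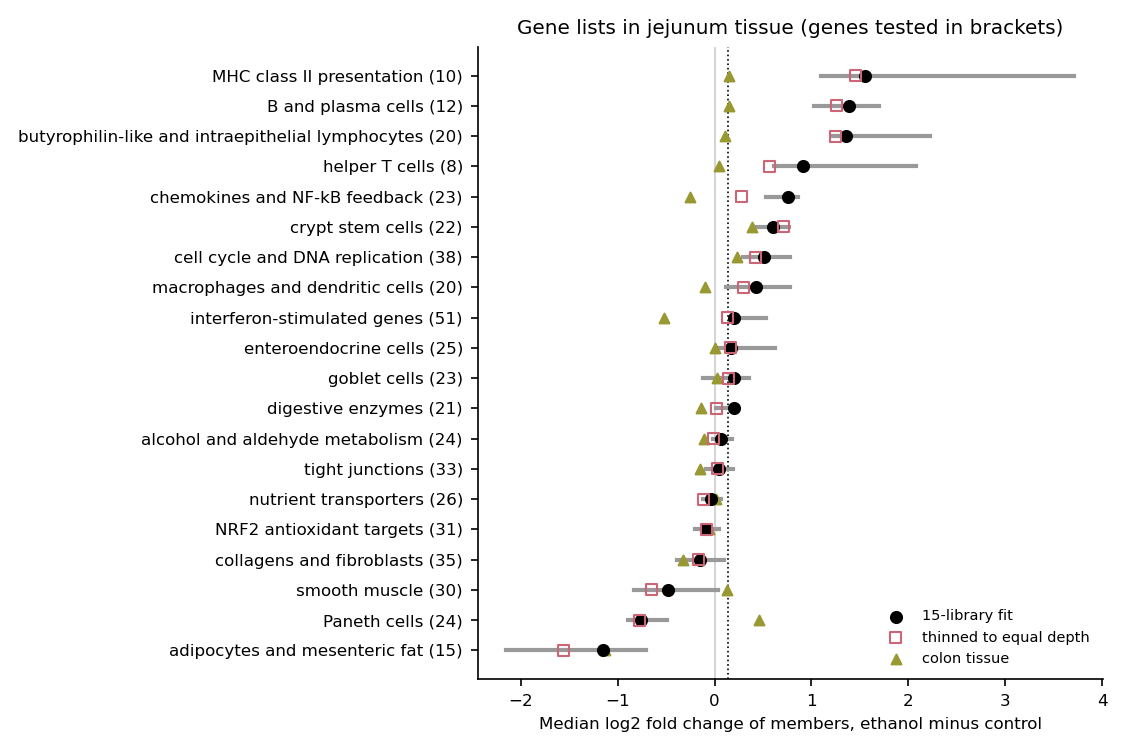
Median log2 fold change (ethanol minus control) of the tested genes of 20 lists in jejunum tissue (black), after thinning to equal depth (squares) and in colon tissue (triangles). Grey lines span the medians with 1 library left out in turn, and the dotted line is the median of all genes (0.14). MHC class II, B and plasma cell and intraepithelial lymphocyte genes have medians above 1, and Paneth cell genes a median of -0.76.

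The ethanol effect in jejunum tissue was set against that in colon tissue (4 control and 4 ethanol libraries of the same treatment) by the interaction term of the edgeR fit. Of 13405 genes 0 (0%) differed at an adjusted p under 0.05, and 856 (6.39%) at an unadjusted one. Igj had a log2 fold change of 2.24 ± 0.70 in jejunum and -0.50 ± 0.58 in colon, a difference of 2.74 ± 0.90 (edgeR adjusted p = 0.664). Pqlc3 differed by 2.18 ± 0.40 and Nck1 by 1.80 ± 0.38 (both edgeR adjusted p = 0.369). Gm15284 differed by -3.22 ± 0.71 (edgeR adjusted p = 0.369; DESeq2 adjusted p = 0.0461), but its level in colon was only 0.236 to 3.70 CPM. Bcmo1 was at 0.919 to 4.72 CPM in colon, below every jejunum value. Cd74 had 72.5 to 121 CPM in colon controls and 53.1 to 128 CPM in colon with ethanol, near the level of jejunum controls 1 and 2. The Paneth list had a median of -0.76 in jejunum and 0.46 in colon, the latter from genes of low level there.

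The same contrast with jejunum organoids (4 control and 4 ethanol libraries) used the 15 jejunum libraries. Of 12236 genes 0 (0%) differed at an adjusted p under 0.05, and 1068 (8.73%) at an unadjusted one. Pqlc3 (-0.51 ± 0.25 in organoids), Nck1 (-0.19 ± 0.21) and Cdk4 (-0.10 ± 0.21) each differed from tissue with an edgeR adjusted p of 0.12. DESeq2 called these 3 among 13 genes. In organoids Igj and Cd74 were near 0, with at most 0.664 CPM for Igj and 0.834 CPM for Cd74. Not all genes of the plasma cell and class II lists were: H2-DMa had 2.88 to 6.23 CPM in organoids and Sdc1 90.8 to 171 CPM. Gm15284 was abundant there, at 2794 to 6221 CPM, with a log2 fold change of -0.26 ± 0.27. Its difference from tissue was -1.15 ± 0.39 (edgeR adjusted p = 0.37). Lyz1 was -0.51 ± 0.35 in organoids and 0.30 ± 0.41 in tissue. The 24 Paneth cell genes had a median of -0.47 in organoids, where 2 of 24 were positive and the median of all genes was -0.02, so lower values of this list were found in both kinds of sample. Bcmo1 was at 1.31 to 3.54 CPM in organoids.

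**Figure D5:**
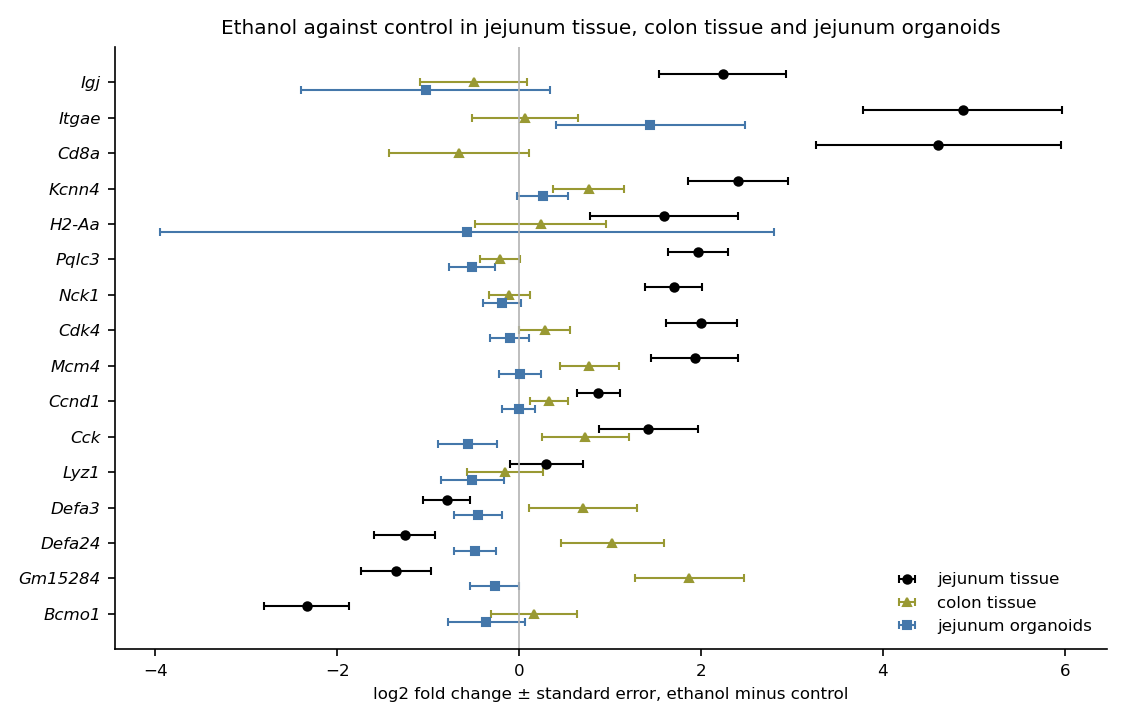
Log2 fold change (ethanol minus control) with its standard error of 16 genes in jejunum tissue (circles), colon tissue (triangles) and jejunum organoids (squares); Cd8a had 0 counts in all organoid libraries and has no square. The differences of jejunum tissue stand apart from the other 2 for Pqlc3, Nck1 and Cdk4, while Lyz1 lies between -0.51 and 0.30, and no difference passed adjustment in edgeR.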

How the data were processed

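RNA 3′ ends of whole jejunum tissue were sequenced with the QuantSeq 3′ mRNA-Seq kit, per the labels' protocols. The deposited table holds whole-number read counts, not normalized, for 23420 gene symbols. The authors also deposited a table of normalized values in an unstated unit, taken as a log-like score and used for 1 alternative, with limma. Trimmomatic 0.32, BWA, HTSeq, limma, edgeR and the mm10 build are named in the submitters' processing notes; the use of read strand is not given in the labels, so antisense and overlapping genes cannot be told apart. Each read is 1 tag near a transcript's end, so CPM carry no length correction.

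Rn45s was removed before totals and scaling. Counts of the 15 tissue libraries were fitted with edgeR 4.0.16 (R 4.3.3): TMM, filterByExpr, robust quasi-likelihood fit, 1 coefficient per group, two-sided F-test and Benjamini-Hochberg adjustment. This shares 1 estimate of the spread with colon tissue. Calls are genes with an adjusted p below 0.05. DESeq2 1.42.0 and limma 3.58.1 were alternatives, along with other scalings, filters, libraries, thinning, the share of Rn45s as a covariate and leaving out each library. The scripts were tested on simulated data. Exact intervals of ratios and floors cover counting error only. The interval given for the log2 fold change of Aldh2 is edgeR's and includes the spread between libraries.

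The genes named are the 10 smallest p-values in each direction with a mean of at least 5 CPM (since none was called), a fixed set of ethanol, crypt and barrier genes, and members of the lists described. Members and lists were chosen with earlier results of these data known. The 65 lists are described by counts and medians without a set test. Genes outside these rules, such as Igj, Kcnn4 and Lars2, were named after their values were seen, and some genes are not reported here.

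Donor numbers recur under both treatments and the labels do not say what a number shares. Over 10070 genes, the deviations of same-numbered control and ethanol libraries from their group means correlated at 0.109, 0.108 and 0.144, and those of other pairs at -0.173 to 0.0352, so the fit with the donor number as a block is given where it changed a call. Replicates of a group differed beyond sampling noise (chi-square per degree of freedom 9.46 to 35.2), and no library was counted as a repeat. Nothing states that they are separate animals, so p-values measure the spread between these samples. The labels name no sequencing run, so no batch could be examined. Coordinates are from GENCODE vM21 (GRCm38, counted from 1), in which, or through RefSeq synonyms, 98.4% of symbols were found. Promoter sequences are from RefSeq (GRCm38.p6).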

Additional observations from a re-analysis of the deposited data

Results flagged for a closer look

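Among the values of single genes and of the depth measures, 152 were examined for 1 ethanol library lying far from the other 3, and 10 were; chance marks about 1 in 20. Ethanol 2 stood apart for 5 genes: it was high for Defa26 (36.1 CPM, next 12), Mptx2 (26.2 CPM, next 13.7) and Kif20a (4.64 CPM, next 2.17), and low for Ciita (5.96 CPM, next 9.52) and Aldh7a1 (0 CPM, next 0.501). Ethanol 3 was low for the lectin Itln1 (554 CPM, next 1149) and the chemokine Ccl28 (8.04 CPM, next 18.8). Ethanol 4 was high for Tmem107 (15.7 CPM, next 10.3) and for Zbtb3 (0.334 CPM, with the others at 0). Ethanol 1 was low for the claudin Cldn3 (49.7 CPM, next 136). The groups of 3 controls are too small for this comparison.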

How the results depend on the processing

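The count of calls moved with the tool and the libraries. It was 0 with edgeR on the 15 tissue libraries and also with limma-voom, other scalings, the filters tried, thinning, Rn45s kept or used as a covariate, and the replicate block. It was 31 with DESeq2, 13 with all 27 libraries, 3 (Mbd2, Pqlc3 and Wtip) with the deposited normalized table, and 23 at an adjusted p under 0.1. With the 7 jejunum tissue libraries alone it was 1 (Igj), 10 with the replicate block, 2 (Igj and Bcmo1) with limma-voom and 8 with DESeq2, the last 2 settings chosen after seeing the data. Leaving out each library gave 0 to 6 calls (6 without control 3, 5 without ethanol 1) and, with the 7 alone, 0 to 5. List members called were 0 with edgeR, 1 with the 7 alone, 4 with DESeq2 and 0 to 3 with a library left out (3 without control 3). Differences from colon tissue were 0, 2 with DESeq2 and 0 to 1 with a library left out (Cd74 without control 3). Differences from organoids were 0, 13 with DESeq2, 3 without a filter (Acsm3, Cdk4 and Eif2b1) and 0 to 4 with a library left out (4 without ethanol 1). The cause was not tested.

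A direction was read only for genes whose difference exceeded its standard error, 124 of the 149 genes examined. It turned for 7 of them. With the share of Rn45s as a covariate the log2 fold changes were -0.45 for Cldn3, 0.23 for Ang4, -0.16 for Chgb and 0.64 for Cnn1, a smooth muscle gene. With a library left out, Cyp2e1 ran from -1.86 to 1.25 (the latter without control 3) and Car1 from -3.54 to 2.18 (without control 2; 2.13 with the 7 alone); and Scd1 0.041 in the normalized table. The controls hold 684906 to 1510057 counts, so genes below about 3 CPM rest on few control reads.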

Other observations

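Genes of amino acid breakdown and of cell death held further differences, given as values. Of 21 gluconeogenesis and amino acid genes tested, 5 were higher (Asl, Cth, Mat2a, Oat and Bckdhb) and 1 lower (Hpd) at an unadjusted p under 0.05, against 8.55% and 2.36% of all genes. The groups were apart for 4, all higher (Asl, Cth, Mat2a and Fah; 6.44% of all genes were), and for 4 after thinning (3.73% of all). Asl, the argininosuccinate lyase of arginine synthesis, had 0, 4.66 and 1.70 CPM in the controls and 13.1, 8.94, 10.3 and 8.35 CPM with ethanol (2.47 ± 0.66). Cth, which makes cysteine from cystathionine, had 49.5, 63.7 and 54.3 CPM against 89.1, 69.9, 91.0 and 146 CPM (0.84 ± 0.30). Mat2a, which makes the methyl donor S-adenosylmethionine, had 105, 74.6 and 95.9 CPM against 148, 146, 137 and 192 CPM (0.76 ± 0.31). All ethanol libraries were above the controls for these 3 genes, and for none of them did edgeR's adjusted p pass. Hpd, of tyrosine breakdown, had -1.02 ± 0.35 with overlapping groups.

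Of 28 cell death genes tested, 4 had an unadjusted p under 0.05, all higher (8.55% of all genes were), among them Ripk3 and Mlkl. The necroptosis kinase Ripk3 had 8.25, 4.66 and 3.39 CPM against 8.56, 18.9, 13.9 and 19.0 CPM, and its target Mlkl had 2.75, 6.21 and 4.24 CPM against 7.42, 11.9, 6.66 and 11.5 CPM. The groups of both were apart at full depth, and after thinning 0 of the 28 genes had ethanol above all controls.

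Among 31 NRF2 antioxidant targets the median log2 fold change was -0.09. Glutathione reductase Gsr had 93.5, 99.4 and 106 CPM against 134, 124, 138 and 174 CPM (0.51 ± 0.25), while the metallothionein Mt1 had 443, 336 and 356 CPM against 311, 187, 234 and 291 CPM (-0.56 ± 0.47). Gsr was thus higher and Mt1 lower in every ethanol library than in any control, and neither passed edgeR's adjustment.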
